A study of Mus musculus with 8 samples.

Results

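The genes described here encode 4 ligands of the TGF-beta superfamily (*Bmp2*, *Bmp4*, *Bmp7* and *Tgfb2*), the BMP receptor *Bmpr1a*, the secreted antagonist *Sostdc1* and 3 transcriptional targets of BMP signaling (*Id1*, *Id2* and *Id3*). They were chosen by symbol, and all 9 were found among the 19593 genes listed in the mouse epidermis data. All mice carried the Troy-EGFP-IRES-CreERT2 allele, in which the cassette takes the place of the protein-coding part of *Troy* (*Tnfrsf19*), so EGFP stands in for the protein, and every control carried it too. Back skin of adult C57BL/6 mice was taken in telogen, the resting phase of the hair cycle. Bulk mRNA was sequenced from 3 sorted populations of 2 mice, namely all viable cells, ITGA6bright Troy-EGFP+ cells and ITGA6bright Troy-EGFP- cells, where ITGA6 is an integrin that anchors basal cells to the basement membrane. Single cells were sorted into 384-well plates from 4 Troy-EGFP mice, 1 plate each, and from 2 mice homozygous for both the Troy allele and a Rosa26-LSL-tdTomato reporter. These traced mice, both male, received tamoxifen and were analysed a week later, with cells gated on ITGA6, EGFP and tdTomato. The gate of a well was not used here, so the wells are a mixture set by the sort and their shares do not describe the skin.

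BMP ligands bind pairs of type I and type II receptors, of which BMPR1A is a type I receptor, and the activated receptors phosphorylate SMAD proteins that switch on the Id genes. Id proteins lack a DNA-binding region and hold back basic helix-loop-helix transcription factors. In the hair follicle, BMP signaling is known for keeping stem cells of the bulge at rest, and secreted antagonists and TGF-beta 2 are known to take part in ending that rest.

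Both kinds of data were shallow. The bulk libraries held between 157537 and 453005 counts. Of 2304 wells, 1109 had at least 1000 transcripts and were kept, 71 to 262 per plate, with a median of 1676 to 3267 transcripts per plate. The files of Troy-EGFP plates 3 and 4 list 30 and 32 mitochondrial genes, and those of the other 4 plates list 0. Plates 3 and 4 also held 122 and 112 *Xist* transcripts and 0 of *Ddx3y*, while the other plates held 0 of *Xist*. Sex, the way the file was made and the plate can therefore not be told apart between these sets of plates. Wells were sorted into classes by clustering, without the 9 genes and without the other genes of the BMP and TGF-beta list below, and each class was named from marker genes. The classes were IFE I-like (318 wells, basal interfollicular epidermis), IFE II-like (162 wells, differentiating interfollicular epidermis), upper HF-like (173 wells, upper hair follicle) and lower HF-like (248 wells, bulge and germ). Each list of marker genes had its highest sum in its own class over the 5 plates with enough wells, apart from an overlap of the lower HF list, which spanned 13065 to 29613 counts per 1000000 (CPM) in lower HF-like and 2510 to 18991 CPM in IFE I-like sums. In all, 208 wells that resembled T cells, Langerhans cells or no fixed list were set aside. Transcripts were summed per plate and class, scaled to CPM with TMM factors and tested across plates by edgeR's quasi-likelihood test, with adjusted p values (Benjamini-Hochberg) over all genes and a threshold of 0.05.

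*Bmp4*, a ligand, was the member that marked the interfollicular wells. The gene lies on chr14:46383520-46390669 (GRCm38, minus strand), where the annotation also places the transcripts Gm15217 and Gm15222 on the opposite strand. In interfollicular wells (IFE I-like and IFE II-like together) of Troy-EGFP plates 1 to 4, it stood at 65.2, 133, 128 and 86.2 CPM, against 0, 0, 17.0 and 25.8 CPM in follicle wells of the same plates. The interfollicular sums were higher in 4 of 4 plates and the ranges did not overlap. Over the 4 plates 11 transcripts in follicle wells stood against 110 in interfollicular wells, a level 6.18-fold lower (95% counting interval 3.32 to 12.7). The fitted log2 fold was -2.73 ± 0.57 (SE, n = 4 plates), with an edgeR adjusted p of 0.00719. *Bmp4* passed the filter on low counts only through the interfollicular sums, where it is high. The call was lost without Troy-EGFP plate 3 (log2 fold -2.62, edgeR adjusted p = 0.0625). In the traced plates *Bmp4* stood at 145 and 119 CPM in interfollicular wells and at 0 and 5.58 CPM in follicle wells, 106 against 2 transcripts, 42.2-fold lower (11.4 to 353). Its fitted log2 fold was -5.29 ± 0.86 (SE, n = 2 plates) with an edgeR adjusted p of 0.00228. This call was lost without traced plate 1 (edgeR adjusted p = 0.308) and without traced plate 2 (0.133). It was also lost when wells were assigned to classes by their marker sums in place of clusters (log2 fold -1.37, edgeR adjusted p = 0.423). Where 0 transcripts were counted, a floor of 3 transcripts per sum corresponds to 130 CPM in Troy-EGFP plate 1, 22.4 CPM in plate 2 and 9.02 CPM in traced plate 1. In plate 1 a follicle level like the 65.2 CPM of its interfollicular wells would not have been detectable as different.

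Within the interfollicular wells *Bmp4* was at 124, 210, 124, 182 and 177 CPM in IFE I-like sums (Troy-EGFP plates 2 to 4, then traced plates 1 and 2), and at 156, 79.8, 53.0, 61.3 and 37.8 CPM in IFE II-like sums. It was lower in IFE II-like wells in 4 of 5 plates, with a log2 fold of -1.30 ± 0.44 (SE, n = 5 plates) that did not pass the test (edgeR adjusted p = 0.0629). With the mouse as a block it passed (log2 fold -1.35, edgeR adjusted p = 0.0100), as it did without Troy-EGFP plate 2, the plate with the reverse order (-1.61, edgeR adjusted p = 0.0023). With each well thinned to 1000 transcripts, 13.8% of IFE I-like wells held a *Bmp4* transcript (exact 95% interval 10.2 to 18.1; 31.4% before thinning). The thinned share was 6.17% in IFE II-like wells, 0.403% in lower HF-like wells, 0.578% in upper HF-like wells and 0 of 71 T cell-like wells, which on a floor of 3 wells allows up to 4.23%. The T cell-like wells had a median depth of 1815 transcripts against 3364 in IFE I-like wells, and were too few to tell the shares in follicle wells from background.

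The reference promoter windows of *Bmp4*, *Tgfb2* and *Id2*, the members with the largest fitted folds between follicle and interfollicular wells of the Troy-EGFP plates, are shown as the DNA in front of the RefSeq starts of genes that differed between classes. The windows are from RefSeq (GRCm38.p6), on the minus strand as the genes, and end before the annotated start or the first exon. The *Bmp4* window is chr14:46390670-46390919, the *Tgfb2* window chr1:186705990-186706239 and the *Id2* window chr12:25096254-25096342, which lies in the first intron of a longer GENCODE transcript of *Id2* that starts at 25097140. Capitals mark matches on either strand to GGCGCC, a BMP-type SMAD motif, or to CAGAC, a core SMAD motif. The palindrome GTCTAGAC was also searched. These motifs do not contain each other.
Bmp4: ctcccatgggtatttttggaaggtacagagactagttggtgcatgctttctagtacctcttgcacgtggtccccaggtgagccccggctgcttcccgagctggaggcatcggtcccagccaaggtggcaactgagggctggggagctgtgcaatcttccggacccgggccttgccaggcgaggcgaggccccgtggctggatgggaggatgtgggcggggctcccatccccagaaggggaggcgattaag
Tgfb2: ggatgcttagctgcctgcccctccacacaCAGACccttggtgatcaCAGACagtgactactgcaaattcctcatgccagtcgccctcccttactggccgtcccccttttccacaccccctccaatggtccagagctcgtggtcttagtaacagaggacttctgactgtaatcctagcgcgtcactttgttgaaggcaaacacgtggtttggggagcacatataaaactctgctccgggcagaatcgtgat
Id2: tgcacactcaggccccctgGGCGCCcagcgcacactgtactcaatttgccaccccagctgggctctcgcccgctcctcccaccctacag
*Bmp4* held 0 matches, *Tgfb2* held CAGAC at 221 and 204 bases before its start, and *Id2* held GGCGCC at 231 bases before its start. Of 32851 RefSeq promoters, searched over the same 250 bases, 42.2% held CAGAC, 9.59% GGCGCC and 0.167% GTCTAGAC, and a match describes these letters and is not evidence of a site. *Bmpr1a* also held a GGCGCC, at 198 bases, and *Id3* held CAGAC at 167 and 68 bases before its start.

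*Bmp2*, a ligand close to *Bmp4* in sequence (chr2:133552159-133562885, plus strand), had another distribution. In the 4-class sums it was at 38.2, 12.0, 43.0, 53.0 and 27.2 CPM in IFE I-like wells, at 22.2, 44.9, 70.7, 8.75 and 30.3 CPM in IFE II-like wells and at 22.9, 19.9, 86.0, 58.4 and 84.1 CPM in lower HF-like wells. Upper HF-like wells held 0 *Bmp2* transcripts in all 5 plates, against 39 in lower HF-like wells, at least 11.6-fold higher in the latter on a floor of 3 transcripts over the group. The filter on low counts left *Bmp2* out of this test. In the 3 alternatives that tested it (no filter, DESeq2, plates 3 and 4 alone) it was called, with adjusted p from 2.41e-06 to 0.0256. A *Bmp2* transcript was found in 0 of 173 upper HF-like wells, which on a floor of 3 wells allows up to 1.73% of wells with a transcript, not of cells expressing the gene, while the share before thinning was 6.29% in IFE I-like, 6.85% in lower HF-like, 1.41% in T cell-like and, highest, 13.6% in IFE II-like wells. Thinned to 1000 transcripts the shares were 1.89% in IFE I-like (exact 95% interval 0.695 to 4.06), 1.23% in IFE II-like (0.150 to 4.39) and 3.63% in lower HF-like wells (1.67 to 6.78), and 0 of 71 T cell-like wells, which allows up to 4.23%, so thinned shares do not separate *Bmp2* in these classes from background. The comparison of all follicle with all interfollicular wells gave *Bmp2* log2 folds of -0.54 in Troy-EGFP and -0.13 in traced plates, neither of which passed the test (edgeR adjusted p = 0.756 and 1.0). The follicle sum was the lower in 4 of 4 Troy-EGFP plates and in 1 of 2 traced plates.

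*Bmp7* (chr2:172868012-172940321, minus strand), the third BMP ligand, was highest in upper HF-like wells, at 145, 249, 143, 172 and 208 CPM. Lower HF-like wells stood at 126, 110, 117, 162 and 49.1 CPM, below the upper HF-like sum in 5 of 5 plates. The difference was a log2 fold of -0.74 (lower over upper) and did not pass the test (edgeR adjusted p = 0.276). In follicle against interfollicular wells *Bmp7* reached 159 against 52.9 CPM in Troy-EGFP plate 3, 120 against 73.9 in plate 4, 122 against 113 in plate 2 and 28.9 against 16.3 in plate 1. The log2 fold of 0.80 did not pass the test (edgeR adjusted p = 0.466), while plates 3 and 4 alone gave 1.10 (0.0306). Plates 1 and 2, in a fit with the traced plates that share the estimate of spread, gave 0.35 (0.853). In traced plates the follicle stood at 161 and 137 CPM and the interfollicular wells at 58.6 and 21.7 CPM, without overlap. That log2 fold of 1.86 ± 0.60 (SE, n = 2 plates) was not called (edgeR adjusted p = 0.126), but was with the mouse as a block (1.91, edgeR adjusted p = 2.93e-05), and without Troy-EGFP plate 2, which only shares the estimate of spread (1.87, edgeR adjusted p = 0.0193).

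*Tgfb2*, the TGF-beta ligand of the set (chr1:186622792-186705989, minus strand, with Gm26169 and Gm29491 on the opposite strand), rose in the follicle wells of the Troy-EGFP plates. Follicle sums held 0, 15.2, 45.3 and 87.2 CPM in plates 1 to 4, and interfollicular sums 0, 0, 7.56 and 4.93 CPM. These are 37 against 5 transcripts, a ratio of 12.0 (95% counting interval 4.70 to 39.1), and 27 of the 37 came from plate 4. The ranges overlapped at 0 because of plate 1. The fitted log2 fold was 3.19 ± 0.84 (SE, n = 4 plates), with an edgeR adjusted p of 0.0308. DESeq2 gave an adjusted p of 0.0513, and the call was lost without traced plate 1 or traced plate 2, which share the estimate of spread (edgeR adjusted p = 0.0725 and 0.0776). *Tgfb2* passed the filter on low counts only through the follicle sums where it is high, and did not reach it without Troy-EGFP plate 3 or plate 4. Without a filter it was also called (3.14, edgeR adjusted p = 0.00449). The follicle sums of plates 3 and 4, the plates whose files list mitochondrial genes, were above the values of the other plates, although the floor of 130 CPM in plate 1 does not place its 0 below them, and these 2 plates alone gave a log2 fold of 3.42 (edgeR adjusted p = 0.000294). In traced plates the follicle held 12.3 and 16.8 CPM and the interfollicular wells 2.35 and 8.12 CPM, a log2 fold of 1.44 that did not pass the test (edgeR adjusted p = 0.776). By class, lower HF-like sums stood at 11.5, 79.7, 147, 25.9 and 35.1 CPM, against 28.9, 0, 23.9, 0 and 4.94 CPM in upper HF-like sums. The 42 against 5 transcripts are a ratio of 7.48 (2.96 to 24.2). *Tgfb2* did not reach the filter of the 4-class fit, and it was called in the 3 alternatives that tested it (adjusted p 0.0159 to 0.0343).

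**Figure D1:**
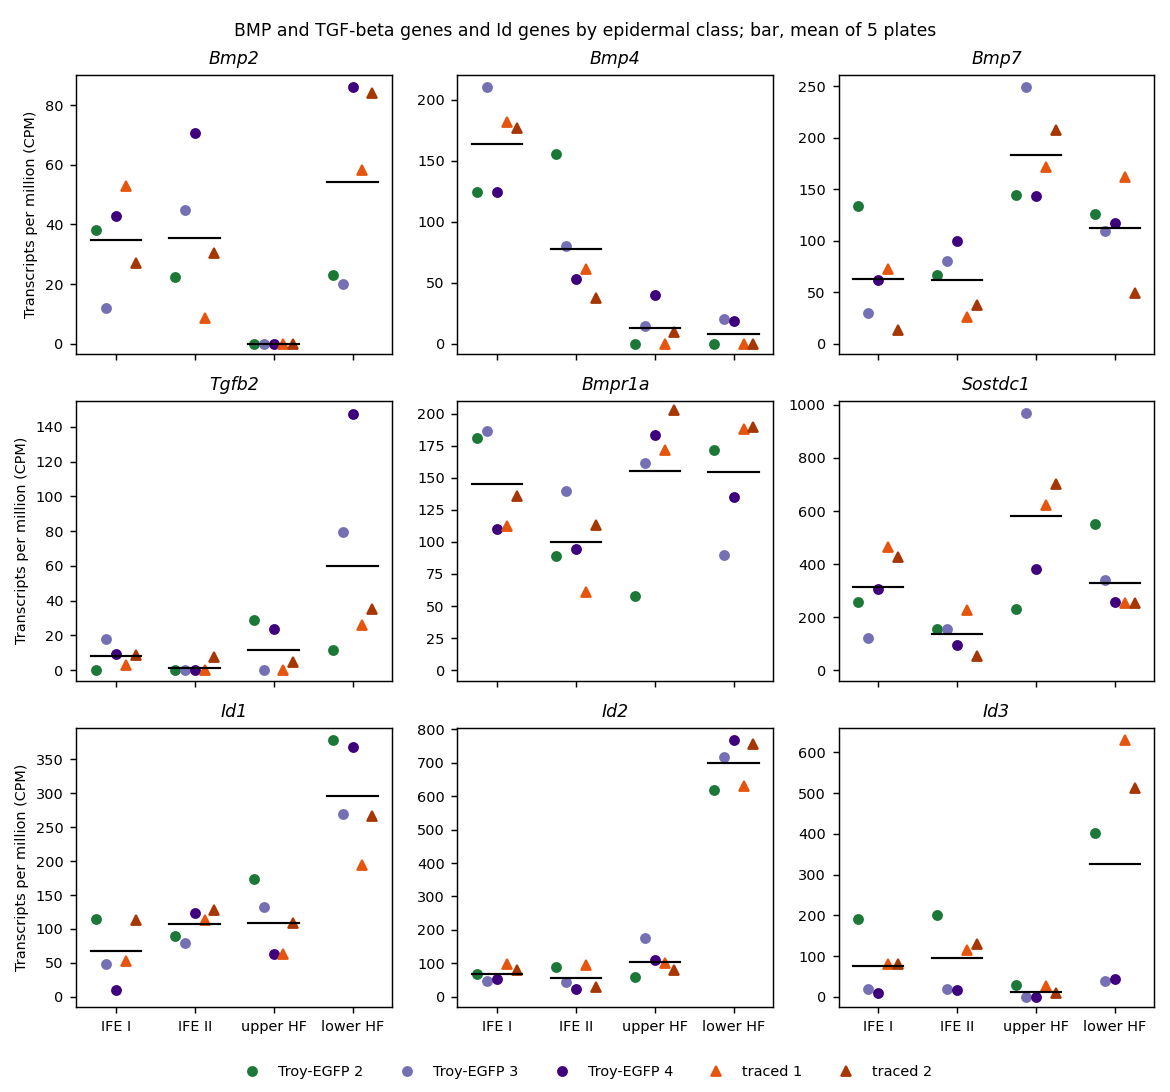
Levels of the 9 genes (transcripts as CPM, scaled by TMM, linear axes from 0) in the sums of 4 epidermal classes, with a point for each of 5 plates (circles, Troy-EGFP; triangles, traced) and a bar at their mean. *Bmp4* is highest in IFE I, *Bmp2* is at 0 in upper HF, and all 5 lower HF points of *Id2* (619 to 768 CPM) lie above all others.

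The receptor *Bmpr1a* (chr14:34410734-34503341, minus strand, with Gm17110 on the opposite strand) passed the test in none of the comparisons between classes. Its class means over 5 plates were 155 CPM in both follicle classes, 145 CPM in IFE I-like and 99.5 CPM in IFE II-like wells, and the ranges of all neighbours in this order overlapped. In the Troy-EGFP plates the mean was 126 CPM in follicle and 124 CPM in interfollicular wells, a log2 fold of 0.03 (edgeR adjusted p = 0.994). Traced plates stood at 173 and 190 CPM in follicle and 96.2 and 122 CPM in interfollicular wells, without overlap, a log2 fold of 0.73 that did not pass the test (edgeR adjusted p = 0.505). IFE II-like sums were lower than IFE I-like sums in 5 of 5 plates.

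*Sostdc1* (chr12:36314139-36318452, plus strand), a secreted protein that binds BMPs and also dampens WNT signaling, was highest in upper HF-like wells. There it reached 232, 968, 382, 623 and 702 CPM, against 550, 339, 258, 253 and 252 CPM in lower HF-like wells, 258, 120, 305, 463 and 425 CPM in IFE I-like wells and 156, 155, 94.3, 228 and 53.0 CPM in IFE II-like wells. Troy-EGFP plate 2 was the only plate whose lower HF-like sum was above its upper HF-like sum. The log2 fold of lower over upper HF-like wells was -0.83 and not called (edgeR adjusted p = 0.184), but -0.86 with the mouse as a block (0.0383) and -1.19 without Troy-EGFP plate 2 (0.00462). Between IFE II-like and IFE I-like wells it was -1.21 ± 0.41 (SE, n = 5 plates, edgeR adjusted p = 0.0598), and it passed with the block (-1.30, 0.00443), without Troy-EGFP plate 2 (-1.32, 0.0043) and without Troy-EGFP plate 3 (-1.48, 0.0352). Thinned to 1000 transcripts, 33.5% of upper HF-like wells held a *Sostdc1* transcript (exact 95% interval 26.5 to 41.1; 54.3% before thinning), 19.4% of lower HF-like, 15.1% of IFE I-like and 10.5% of IFE II-like wells, and 0 of 71 T cell-like wells. In follicle against interfollicular wells the Troy-EGFP plates 1 to 4 gave 318, 427, 566 and 291 CPM against 310, 226, 128 and 197 CPM, higher in 4 of 4 plates. The log2 fold of 0.97 ± 0.33 (SE, n = 4 plates) did not pass the test (edgeR adjusted p = 0.123), but did with the mouse as a block (1.07, edgeR adjusted p = 1.5e-05), with wells of at least 2000 transcripts (1.29, 0.0404), in plates 3 and 4 alone (1.35, 0.00117) and without Troy-EGFP plate 1 (1.25, 0.047). DESeq2 also called it (1.05, adjusted p = 0.0349). Traced plates gave 423 and 497 CPM in follicle and 389 and 274 CPM in interfollicular wells, with a log2 fold of 0.47 (edgeR adjusted p = 0.847).

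Among the targets, *Id2* (chr12:25093799-25097140, minus strand) separated the follicle most clearly. In Troy-EGFP plates 1 to 4 follicle wells stood at 405, 427, 476 and 449 CPM and interfollicular wells at 81.6, 73.2, 42.8 and 36.9 CPM. The log2 fold was 3.05 ± 0.33 (SE, n = 4 plates), with an edgeR adjusted p of 3.84e-05, and it was called in all 18 alternatives (highest adjusted p 0.00122). In traced plates follicle wells were at 349 and 346 CPM and interfollicular wells at 96.2 and 59.6 CPM. There the log2 fold was 2.15 ± 0.42 (SE, n = 2 plates, edgeR adjusted p = 0.00803). It was not called without traced plate 1 (edgeR adjusted p = 0.263), without traced plate 2 (0.563) or with classes by marker sums (1.43, 0.14). The level came from the lower follicle, with 619, 717, 768, 629 and 757 CPM in lower HF-like sums against 57.9, 176, 112, 102 and 79.1 CPM in upper HF-like sums. Upper HF-like wells overlapped IFE I-like wells (48.0 to 99.3 CPM), which in turn overlapped IFE II-like wells. Lower over upper HF-like wells gave a log2 fold of 2.73 ± 0.31 (SE, n = 5 plates, edgeR adjusted p = 1.31e-06), called in 18 of 18 alternatives. Thinned to 1000 transcripts, 36.3% of lower HF-like wells held an *Id2* transcript (exact 95% interval 30.3 to 42.6; 57.7% before thinning), against 7.51% of upper HF-like and 5.35% of IFE I-like wells. *Id2* was also found in 73.2% of T cell-like and 84.2% of Langerhans cell-like wells, which were set aside. In the lower HF-like sums the summed T cell markers spanned 0 to 49.1 CPM and the Langerhans cell markers 0 to 627 CPM, against 19.9 to 71.6 and 76.1 to 582 CPM in IFE I-like sums, and their part in *Id2* was not tested.

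*Id1* (chr2:152736251-152737410, plus strand) followed the same order of follicle classes. Follicle wells of Troy-EGFP plates 1 to 4 stood at 231, 297, 204 and 220 CPM, and interfollicular wells at 81.6, 106, 60.5 and 56.6 CPM, without overlap. The log2 fold was 1.70 ± 0.33 (SE, n = 4 plates, edgeR adjusted p = 0.00448), and it was lost only without Troy-EGFP plate 4 (1.61, 0.0537) among 18 alternatives. In traced plates the values were 123 and 168 CPM against 68.0 and 114 CPM, a log2 fold of 0.68 that did not pass the test (edgeR adjusted p = 0.65). Lower HF-like sums held 378, 269, 368, 195 and 266 CPM and upper HF-like sums 174, 132, 63.7, 63.6 and 109 CPM. The lower sum was higher in 5 of 5 plates, with a log2 fold of 1.57 ± 0.40 (SE, n = 5 plates, edgeR adjusted p = 0.00834). IFE I-like wells had the lowest mean, 67.6 CPM, and overlapped IFE II-like wells (mean 107 CPM).

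*Id3* (chr4:136143497-136145755, plus strand) had 2 patterns, one by class and one by plate. By class, lower HF-like wells held 401, 39.8, 43.0, 629 and 512 CPM and upper HF-like wells 28.9, 0, 0, 25.4 and 9.88 CPM. These were 216 against 7 transcripts, a ratio of 27.5 (95% counting interval 13.1 to 69.2), and the log2 fold was 4.81 ± 0.94 (SE, n = 5 plates, edgeR adjusted p = 0.000798). By plate, Troy-EGFP plates 3 and 4 stood apart in IFE I-like, IFE II-like and lower HF-like sums, while in upper HF-like sums 0 to 4 transcripts per plate were too few to tell plates apart. Their follicle wells held 22.7 and 22.6 CPM against 145 to 312 CPM in the other 4 plates, and their interfollicular wells 17.6 and 12.3 CPM against 86.8 to 193 CPM. The means of the other plates were 10.4-fold higher in follicle and 8.70-fold higher in interfollicular wells, a description of sets formed after the files were seen. Neither *Id1* nor *Id2* had a gap between these plates of that size: the means were 58.6 against 92.4 CPM for *Id1* and 39.9 against 77.6 CPM for *Id2* in interfollicular wells, and 462 against 382 CPM for *Id2* in follicle wells. Values of other members were also without overlap between these sets of plates, although the floors of 130 and 22.4 CPM in follicle wells of plates 1 and 2 leave the gaps from these 2 plates undetectable for *Bmp4*, and from plate 1 for *Tgfb2*. In follicle wells the means of plates 3 and 4 against the others were 66.3 and 11.1 CPM for *Tgfb2* and 21.4 and 1.40 CPM for *Bmp4*, and in interfollicular wells 163 and 300 CPM for *Sostdc1*. With both sets of plates pooled, follicle against interfollicular wells gave an *Id3* log2 fold of 0.46 (edgeR adjusted p = 0.911) in Troy-EGFP plates. In the traced plates the follicle stood at 312 and 209 CPM and the interfollicular wells at 86.8 and 94.8 CPM. The log2 fold of 1.52 ± 1.03 (SE, n = 2 plates) did not pass the test (edgeR adjusted p = 0.718), but did with the mouse as a block (1.50, edgeR adjusted p = 6.2e-05).

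**Figure D2:**
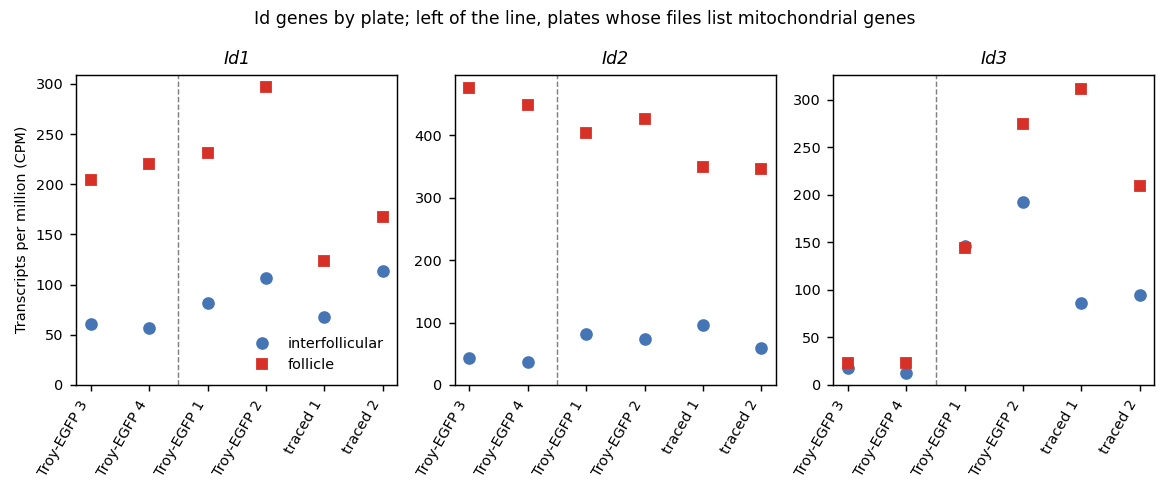
Levels of *Id1*, *Id2* and *Id3* (CPM, linear axes from 0) in follicle (squares) and interfollicular (circles) sums of each of 6 plates, with plates 3 and 4, whose files list mitochondrial genes, left of the dashed line. *Id2* is higher in the follicle in each plate, while *Id3* is between 12.3 and 22.7 CPM in plates 3 and 4 and between 86.8 and 312 CPM elsewhere.

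Of the 9 genes, 3 rose (*Tgfb2*, *Id1* and *Id2*) and 1 fell (*Bmp4*) in follicle wells of the Troy-EGFP plates, where 5.76% of 7575 tested genes were called, 3.83% higher and 1.93% lower (13.5% with the mouse as a block). *Tgfb2* entered this test only through its follicle sums, so its call is no support for the count. *Bmp4* passed the filter, which both experiments share, only through its interfollicular sums. Its calls here and in the traced plates are therefore no support for the counts either. The median log2 fold of the 9 was 0.80, and that of all tested genes -0.03. In traced plates 1 rose (*Id2*) and 1 fell (*Bmp4*), where 2.97% of genes were called, 2.11% higher and 0.858% lower (12.4% with the block), and the medians were 0.73 and -0.00. Between lower and upper HF-like wells 7 of the 9 were tested and 3 rose (*Id1*, *Id2* and *Id3*), where 13.5% of 4044 genes were called, 7.2% higher (18.6% with the block), with medians of -0.09 and -0.00. Between IFE II-like and IFE I-like wells 0 of 7 were called by edgeR, where 10.9% of genes were called (15.9% with the block) and 861 had an unadjusted p under 0.05. DESeq2 called 2 there, *Bmp4* and *Sostdc1*. In the plates with and without mitochondrial genes taken apart, the follicle folds of *Bmp4*, *Id1* and *Id2* were called in each set of Troy-EGFP plates, at log2 folds of -2.23 and -7.66, 1.86 and 1.58, and 3.53 and 2.55. The -7.66 belongs to plates 1 and 2, whose follicle wells held 0 *Bmp4* transcripts, and depends on the prior count. The fit of plates 1 and 2 also held the traced plates, while plates 3 and 4 were fitted alone.

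**Figure D3:**
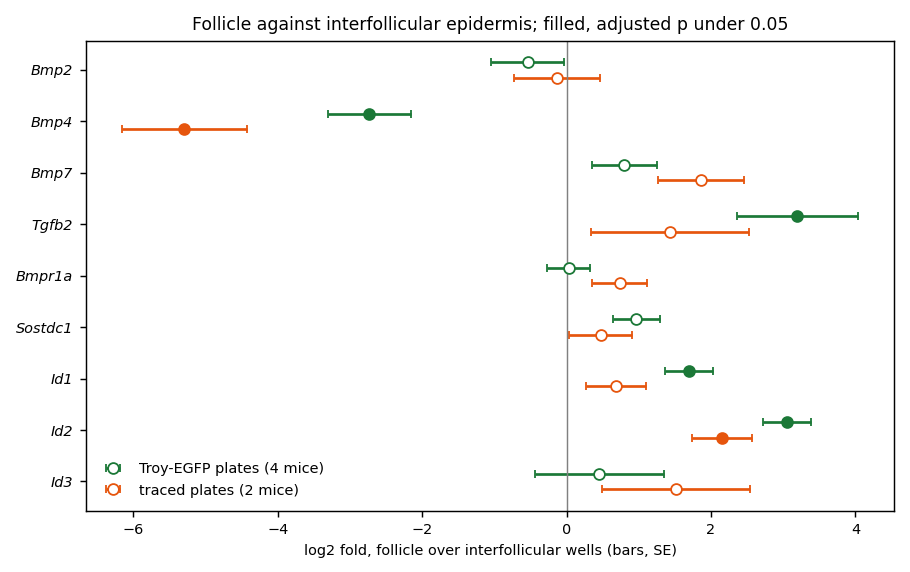
Log2 folds of follicle over interfollicular wells for the 9 genes, with bars of 1 SE, in the Troy-EGFP (4 mice) and the traced plates (2 mice); filled points passed an edgeR adjusted p of 0.05. *Bmp4* lies left of 0 and *Id2* right of 0 in both experiments, and *Tgfb2* and *Id1* are filled in the Troy-EGFP plates alone.

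Whether the follicle effect differed between Troy-EGFP and traced plates was tested directly as an interaction. None of the 9 passed, each with an edgeR adjusted p of 1.0. edgeR called 0% of 7575 genes in this test, with 187 at an unadjusted p under 0.05, and with the mouse as a block 20 genes (0.264%), none of the 9 among them. The differences in log2 fold were -2.56 ± 1.13 for *Bmp4*, -1.02 ± 0.54 for *Id1*, -0.91 ± 0.52 for *Id2*, -1.76 ± 1.49 for *Tgfb2* and 1.06 ± 1.36 for *Id3* (SE, 4 against 2 plates). An effect called in one experiment and not in the other is therefore not shown to differ.

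Traced and Troy-EGFP plates were also compared within a class, and 0 of the 9 passed in either. In interfollicular wells the log2 folds (traced over Troy-EGFP) ran from -0.74 for *Bmp7* to 0.68 for *Sostdc1*, with edgeR adjusted p from 0.444 to 0.994, where 1.16% of genes were called and 1137 had an unadjusted p under 0.05. In follicle wells 0.818% of genes were called and 1167 had an unadjusted p under 0.05. There *Id1* was lower in both traced plates than in any Troy-EGFP plate (mean 145 against 238 CPM, log2 fold -0.70, edgeR adjusted p = 0.393), and so was *Id2* (348 against 439 CPM, -0.35, 0.706). *Bmpr1a* was higher in both (181 against 126 CPM, 0.50, 0.528). *Id3* stood at 261 ± 72.4 CPM (SD, n = 2) against 116 ± 120 CPM (SD, n = 4), a log2 fold of 1.33 ± 0.92 (edgeR adjusted p = 0.532) that passed without Troy-EGFP plate 2 (2.94, edgeR adjusted p = 0.00675), when plates 3 and 4 made up most of the Troy-EGFP group. *Tnfrsf19* itself fell in traced interfollicular wells (log2 fold -3.53, edgeR adjusted p = 0.0235), whose mice have its coding region replaced on both alleles. This call was lost without Troy-EGFP plate 3 or 4 (edgeR adjusted p = 0.0779 and 0.111) and without traced plate 1 or 2 (0.701 and 0.364). Markers moved with this comparison too: the lower HF list summed to 13323 to 14215 CPM in traced interfollicular wells and 1922 to 7936 CPM in Troy-EGFP ones, whose part in these values was not tested. Allele dose, tamoxifen, gating and experiment cannot be told apart here.

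The lower HF-like class was made of 2 clusters that the 9 genes had not been used to form. One was led by *Cd34*, a marker of bulge stem cells, and the other by *Aspn*, with no marker of the lower HF list among its top 10 genes. The *Cd34*-led cluster had 25 to 51 wells in each of 5 plates, and the *Aspn*-led cluster 15, 11 and 13 wells in Troy-EGFP plates 2 to 4 and fewer than 10 elsewhere. In plain CPM, *Tgfb2* was at 0, 10.9, 6.36, 0 and 0 in the *Cd34*-led sums and at 30.3, 244 and 449 in the *Aspn*-led sums. These were 0, 1, 1, 0 and 0 transcripts against 1, 7 and 23, so in Troy-EGFP plate 2 a single transcript separates the clusters. *Bmp7* was at 77.8, 43.7, 38.1, 94.0 and 29.9 against 182, 244 and 254 CPM. *Id2* ran the other way, with 763, 764, 712, 702 and 809 CPM in *Cd34*-led and 151, 69.7 and 254 CPM in *Aspn*-led sums. None of these ranges overlapped, and these values are a description without a test, since the clusters were formed from the same wells. *Id1* overlapped between the clusters (195 to 405 against 139 to 234 CPM), as did *Id3* (43.7 to 673 against 0 to 212 CPM) and *Sostdc1* (178 to 327 against 273 to 819 CPM). Without the *Aspn*-led wells, an alternative chosen after the clusters were seen, *Bmp4*, *Id1* and *Id2* were still called in the Troy-EGFP follicle (log2 folds -2.52, 1.74 and 3.25) and *Tgfb2* no longer reached the filter. In lower against upper HF-like wells without them, *Bmp7* fell by 1.56 on the log2 scale (edgeR adjusted p = 0.0162), and *Id1*, *Id2* and *Id3* kept their calls.

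**Figure D4:**
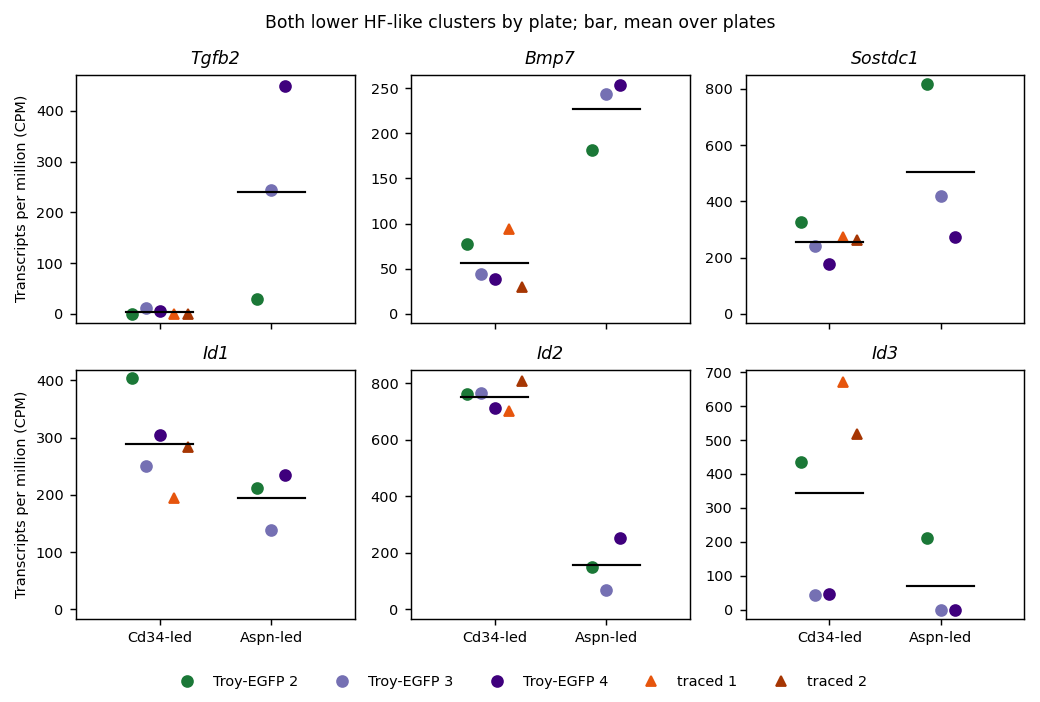
Levels of 6 genes (plain CPM, linear axes from 0) in the sums of both lower HF-like clusters, with a point per plate (circles, Troy-EGFP; triangles, traced) and a bar at the mean. *Tgfb2* and *Bmp7* are higher in the *Aspn*-led sums of 3 plates, while *Id2* lies between 702 and 809 CPM in the *Cd34*-led sums and at or below 254 CPM in the *Aspn*-led sums.

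The bulk libraries compared basal cells with and without EGFP. A lower value in a sorted population may mean fewer cells of a type or less RNA per cell, which cannot be told apart. *Bmp2* and *Bmp4* rose in ITGA6bright Troy-EGFP+ cells. *Bmp2* had 26 and 14 counts in the Troy-EGFP+ libraries of mice 1 and 2 (69.7 and 63.1 CPM) and 1 and 2 counts in the Troy-EGFP- libraries (7.55 and 11.7 CPM). *Bmp4* had 45 and 26 counts (121 and 117 CPM) against 5 and 4 (37.7 and 23.3 CPM). Neither gene overlapped between the populations. The log2 fold was 2.71 ± 0.67 for *Bmp2* (SE, n = 2 mice, edgeR adjusted p = 0.0172) and 1.99 ± 0.47 for *Bmp4* (edgeR adjusted p = 0.0114). DESeq2 called neither (adjusted p = 0.251 and 0.148), and dropping the Troy-EGFP+ sample of mouse 1 ended both calls (edgeR adjusted p = 0.129 and 0.0512). These are 2 of the 8 members with enough counts, where 7.05% of 4653 genes were called and 2.99% were called higher, with a median log2 fold of 0.17 for the members and -0.04 for all genes. *Bmp2* had 10 and 21 counts in the viable libraries and reached the filter only with the help of the Troy-EGFP+ libraries. Its call is therefore no support for this count.

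*Sostdc1* and *Bmp7* had lower levels in Troy-EGFP+ cells, without passing the test. *Sostdc1* had 509 and 313 counts in Troy-EGFP+ (1364 and 1412 CPM) and 286 and 572 in Troy-EGFP- libraries (2159 and 3335 CPM), a log2 fold of -0.99 ± 0.31 (SE, n = 2 mice, edgeR adjusted p = 0.0634). *Bmp7* stood at 53.6 and 45.1 CPM against 106 and 134 CPM, a log2 fold of -1.26 ± 0.39 (edgeR adjusted p = 0.0572). Both passed with the mouse as a block, where 10.1% of all genes were called (-0.96, edgeR adjusted p = 0.0335, and -1.29, 0.0346), and both passed without the Troy-EGFP- library of mouse 1 (-1.25, 1.45e-06, and -1.40, 0.0306), where the single Troy-EGFP- library left is assumed to vary like the other populations. *Bmpr1a* (134 and 194 against 75.5 and 227 CPM) overlapped between the populations, with a log2 fold of 0.03 (edgeR adjusted p = 0.981). The Id genes gave log2 folds of 0.32, -0.70 and 0.87 for *Id1*, *Id2* and *Id3*, with edgeR adjusted p from 0.429 to 0.687, and *Tgfb2* had 2 to 5 counts per library and was not tested. The markers of other cells moved with EGFP: the Langerhans cell list summed to 845 to 1110 CPM in Troy-EGFP- and 63.1 to 77.7 CPM in Troy-EGFP+ libraries, with *Cd207* and *Csf1r* at 0 in the latter, and the T cell list to 152 to 294 against 4.51 to 5.36 CPM. The upper HF list summed to 3650 to 7353 against 493 to 573 CPM, and the IFE I list to 18745 to 19639 against 30200 to 30777 CPM. The part of these cells in the values of the 9 genes was not tested. *Tnfrsf19* was higher in Troy-EGFP+ cells, which were sorted on EGFP made from its locus, with 41 and 16 counts against 3 and 6 (log2 fold 1.65, edgeR adjusted p = 0.0434). That call was lost with DESeq2 (adjusted p = 0.378), without the Troy-EGFP+ library of mouse 1 (0.378) and without the Troy-EGFP- library of mouse 1 (0.108).

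**Figure D5:**
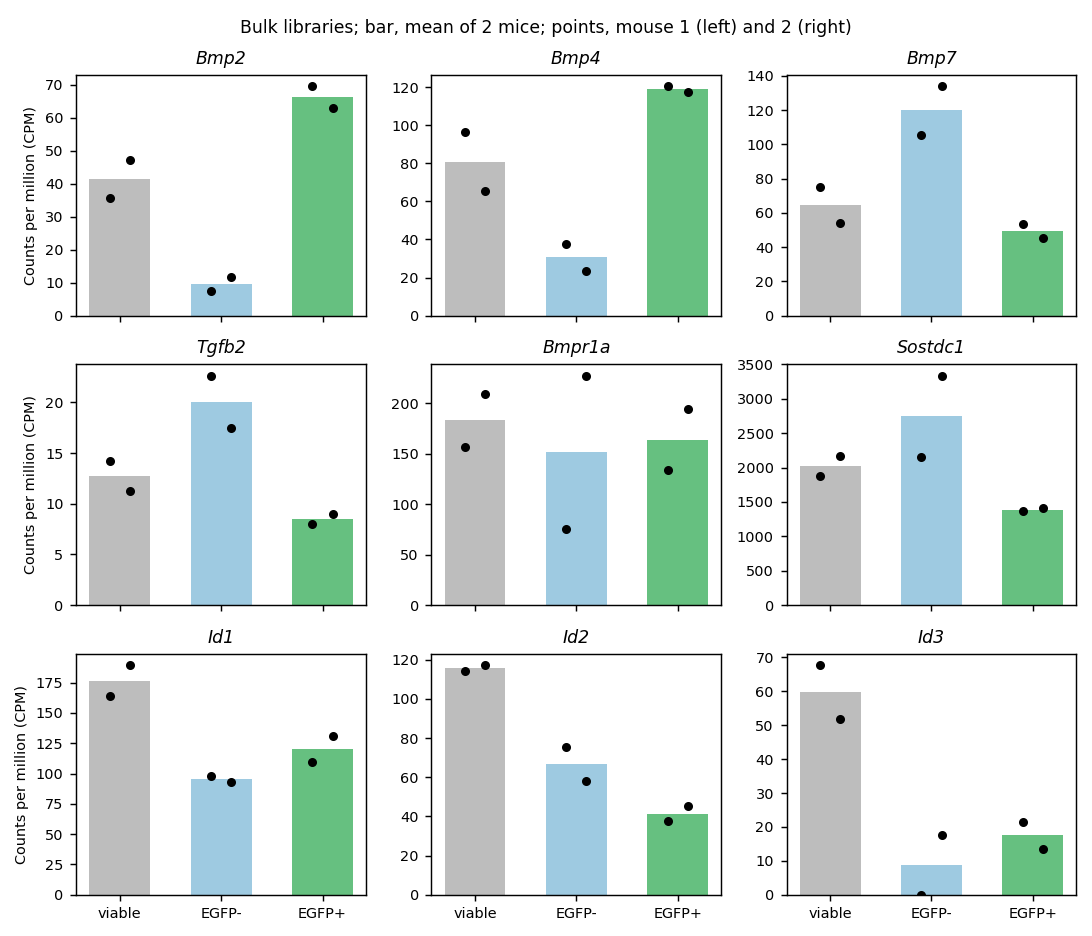
Levels (CPM, linear axes from 0) of the 9 genes in viable, ITGA6bright Troy-EGFP- and ITGA6bright Troy-EGFP+ libraries, with bars at the mean of 2 mice and points for mouse 1 (left) and mouse 2 (right). *Bmp2* and *Bmp4* are higher in EGFP+ than in EGFP- libraries, and the 3 Id genes are highest in viable libraries.

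Against all viable cells, the ITGA6bright populations together had 0 of the 8 tested members past the threshold by edgeR, where 0.172% of genes were called and 266 had an unadjusted p under 0.05. The Id genes were lower in all 4 ITGA6bright libraries than in both viable ones. *Id1* stood at 93.3 to 131 CPM against 164 and 189 CPM (log2 fold -0.73, edgeR adjusted p = 0.69), and *Id2* at 37.5 to 75.5 CPM against 114 and 117 CPM (-1.15 ± 0.30, 0.313). *Id3* had 8, 3, 0 and 3 counts in the ITGA6bright libraries and 19 and 23 in the viable ones, a log2 fold of -2.09 ± 0.55 (edgeR adjusted p = 0.323). *Id2* passed without the Troy-EGFP- library of mouse 1 (-1.26, edgeR adjusted p = 0.0213) and *Id3* without the filter on low counts (-2.17, 0.0161). *Id3* also passed without the Troy-EGFP- library of mouse 2 (-4.36, 0.00352), which leaves a Troy-EGFP- library with 0 counts, so that this value depends on the prior count. The Langerhans cell list was at 196 to 481 CPM in viable libraries and the T cell list at 65.4 to 89.1 CPM, both between the levels of the ITGA6bright populations. DESeq2 also called none of those it tested (0 calls).

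Other genes of the pathway were taken from a list of 63 ligands, receptors, antagonists and binding proteins, SMADs and targets, of which 61 are in the files. In Troy-EGFP follicle wells 33 were tested, 10 rose and 1 fell, with 5.76% of all genes called as given above and a median log2 fold of 0.81. The 10 include *Fstl1* and *Smad6*, which had 0 interfollicular transcripts and passed the filter only through the follicle sums, so that they had to differ. *Nog*, *Grem1*, *Ltbp1* and *Ctgf* had interfollicular means of 8.03, 2.48, 5.57 and 9.13 CPM. Among the Troy-EGFP sums they too reached the filter through follicle wells. Their calls do not support the counts of genes that rose, in this list or among its antagonists. Of 11 tested antagonists and binding proteins, 7 rose. These include the secreted BMP inhibitors *Nog* (67 against 4 transcripts, log2 fold 4.37, edgeR adjusted p = 0.00096), *Grem1* (54 against 4, 4.33, 0.00085) and *Nbl1* (85 against 51, 1.60, 0.026), and *Crim1*, a membrane protein that binds BMPs (1.37, 0.0047). *Fst*, the activin inhibitor follistatin, stood at a mean of 607 against 40.1 CPM (3.88, edgeR adjusted p = 0.00052). *Fstl1* had 25 against 0 transcripts, at least 13.5-fold higher on a floor of 3 transcripts over the group (edgeR adjusted p = 0.024), and *Ltbp1*, which binds latent TGF-beta, 42 against 9 (2.71, 0.031). Among targets and modulators *Ctgf* had 305 against 8 transcripts (5.68, 9.9e-06) and *Id4*, the remaining Id gene, 52 against 21 (1.92, 0.030). *Gata3*, a transcription factor of the epidermis, fell by 2.06 on the log2 scale (edgeR adjusted p = 0.0052). *Smad6*, an inhibitory SMAD, had 14 against 0 transcripts, at least 7.56-fold higher on the same floor (edgeR adjusted p = 0.0346), and was called in 5 of the 8 alternatives that tested it. It lay beyond the 10 genes to be named and was added after its values were seen. It was lost without Troy-EGFP plate 3 (0.0884) or without either traced plate (0.0525 and 0.0514). No receptor of 6 and no ligand of 2 was called. *Grem1*, *Crim1*, *Ctgf* and *Gata3* were called in 18 of 18 alternatives, and *Nog* and *Fst* in 17 of 18. *Nog* was lost in plates 1 and 2 fitted with the traced plates (edgeR adjusted p = 0.135), and *Fst* with classes by marker sums (0.559). *Nbl1* and *Id4* were called in 11 of 18, *Fstl1* in 11 of 17 and *Ltbp1* in 10 of 17 alternatives. These 4 calls were each lost with marker sums, with wells of at least 2000 transcripts, without Troy-EGFP plate 3 and without plate 4. Those of *Nbl1*, *Id4* and *Ltbp1* were also lost without either traced plate, and those of *Nbl1* and *Fstl1* without plate 1. The calls of *Fstl1* and *Ltbp1* were lost without the *Aspn*-led wells (0.0659 and 0.211), and that of *Id4* in plates 1 and 2 fitted with the traced plates. The highest adjusted p values were 0.281, 0.584, 0.233 and 0.242 for *Nbl1*, *Id4*, *Ltbp1* and *Fstl1*.

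In traced follicle wells 2 of the 33 rose, *Ctgf* (log2 fold 6.57, edgeR adjusted p = 0.00019) and *Grem1* (4.17, 0.014). There 2.97% of all genes were called and 2.11% were called higher. With 5 and 2 transcripts in traced interfollicular wells, *Ctgf* and *Grem1* reached the filter only through follicle sums, so their calls do not support the count. Neither call held without traced plate 1 (log2 folds 7.66 and 3.43) or plate 2 (5.93 and 6.40), which leaves 1 traced plate. The *Grem1* call was also lost with classes by marker sums (3.15, edgeR adjusted p = 0.207). In the 3 comparisons of traced with Troy-EGFP plates 0 of 33 were called by edgeR. In lower against upper HF-like wells 9 of 20 rose and 0 fell, with a median log2 fold of 0.53, where 13.5% of all genes were called and 7.2% were called higher. *Nog* had 87 transcripts in lower and 1 in upper HF-like wells and *Grem1* 87 and 2. Of these classes, only the lower HF-like sums carried *Nog* and *Grem1* past the filter, so their calls do not support the count. *Nbl1*, *Crim1*, *Id4*, *Ctgf* and *Tgfbi*, a matrix protein induced by TGF-beta, rose by log2 folds of 2.81, 1.48, 2.12, 4.52 and 2.26, and *Ltbp4* and *Ski* by 1.51 and 1.04. Of these, *Ltbp4* was lost without Troy-EGFP plate 4 (edgeR adjusted p = 0.0565), *Tgfbi* without plate 4 (0.0584) or either traced plate (0.130 and 0.0829), and *Ski* without plate 3 (0.0911), plate 4 (0.0594) or traced plate 1 (0.0981), without the filter on low counts (0.0820) and in the plates with or without mitochondrial genes alone (0.0740 and 0.121). Between IFE II-like and IFE I-like wells 2 of 20 were called, where 10.9% of all genes were: *Ltbp4* (-2.87, edgeR adjusted p = 7.1e-05) and *Crim1* (-1.13, 0.0054) fell, the latter not without traced plate 1 (0.0542). In the bulk libraries 3 of 20 tested genes of the list were called between Troy-EGFP+ and Troy-EGFP- cells, where 7.05% of all genes were: *Gata3* was higher in Troy-EGFP+ cells (1.68, edgeR adjusted p = 0.0014), and *Fst* (-2.38, 0.00021) and *Ltbp1* (-1.79, 0.012) were lower. The *Ltbp1* call was lost with DESeq2 (adjusted p = 0.227) and without the Troy-EGFP+ library of mouse 1 (0.292).

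The genes whose levels ran closest to each member were found over the 20 plate and class sums, as Pearson's r of log2(CPM + 10) among 4037 genes. The sums share plates and differ in depth, and r is a description. *Id2* was closest to *Mn1* (0.955), *Macf1* (0.917) and *Kcnk2* (0.914), and *Bmp4* to *Pou3f1* (0.868), *Rps3a1* (0.865) and *Rpl28* (0.865). *Tgfb2* was closest to *Sncg* (0.817), *Nrep* (0.808) and *Fam101b* (0.806), the last a top gene of the *Aspn*-led cluster. For *Id1* the genes were *Serpinb8* (0.819), *Foxp1* (0.765) and *Lgr5* (0.762), for *Id3* *Cdipt* (0.856), *Slc38a2* (0.848) and *Spag9* (0.828), and for *Bmp2* *Mboat1* (0.816), *Lancl1* (0.809) and *Prss23* (0.792). *Bmp7* was closest to *Epcam* (0.833), *Gclm* (0.795) and *Tle1* (0.787), *Sostdc1* to *Lasp1* (0.723), *Prlr* (0.710) and *Igfbp4* (0.706), and *Bmpr1a* to *Srrm2* (0.765), *Tardbp* (0.757) and *Lmbrd1* (0.755). Between members, *Id1* and *Id2* had an r of 0.68 and *Id2* and *Tgfb2* of 0.66, while *Bmp4* had -0.60 with *Id1*, -0.58 with *Bmp7* and -0.56 with *Id2*, over the same 20 sums.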

How the data were processed

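Bulk mRNA of 3 populations of 2 mice was sequenced by CEL-Seq2 and single cells of 6 mice by SORT-seq, which read the end of a transcript, whatever its length. For the bulk samples the authors deposited whole-number counts per gene without normalization; the study's methods name primers with molecular barcodes and speak of read counts. The plate values the authors deposited are estimated transcripts for every gene and well, a correction of barcode counts for repeated draws of a barcode. All values gave whole barcode numbers when turned back, within 1e-06, for 4096 barcodes (6 bases), although the labels speak of 4 bases. The submitters' processing notes name BWA 0.6.2-r126 and the builds mm10 and hg19. Coordinates are from GENCODE M21 (GRCm38). Counting by strand is not given in the sources used here.

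Wells with at least 1000 transcripts, without spike-ins and mitochondrial rows, were clustered with Seurat 5.3.0 (SCTransform, 3000 variable genes, 20 components, resolution 0.8), leaving 70 genes out, the members and their pathway list among them. Traced wells took their class by label transfer from the Troy-EGFP wells. No doublet caller was run, so doublets may remain. Names are rebuilt here and may differ from those of the study. Rounded sums of at least 10 wells were tested with edgeR 4.0.16 (R 4.3.3), by its quasi-likelihood F test after filterByExpr and TMM scaling; 12 sums entered the 2-class fit, and 20 sums of 5 plates the 4-class fit, since Troy-EGFP plate 1 had too few wells per class. The 6 bulk libraries entered 1 fit. DESeq2 1.42.0, the block, other scalings, filters, minimums, classes, and each mouse left out were alternatives. Intervals of count ratios and shares are exact at 95% and cover counting error only.

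Named are all 9 members, the called genes of the pathway list (at most 10 a comparison, by p), the 3 genes most like each member, and markers. The members and lists were chosen with earlier results of these data known. Same-numbered populations and classes share 1 mouse and are thereby paired by design; deviations of the same mouse correlated by 0.052 to 0.090 in the bulk, by 0.0686 in traced and by 0.244 to 0.521 in Troy-EGFP plates, where deviations of different mice correlated by 0.240 to 0.491 within plates 1 and 2 or 3 and 4, and by -0.440 to -0.304 between these sets. On simulated data with 200 genes changed by a log2 fold of 2, the test recovered 76% of them in the bulk comparison of EGFP (4653 genes, 1.94% of calls false) and 43.5% in Troy-EGFP follicle against interfollicular wells (7575 genes, 0% false). All genes were drawn with 1 dispersion (0.0348 and 0.146) and without differences between plates or mice. These shares therefore do not carry over to the real data.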

Additional observations from a re-analysis of the deposited data

Results flagged for a closer look

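The wells set aside from the comparisons also held transcripts of the 9 genes, above what a count of 0 allows. In T cell-like wells (71 wells) *Id2* stood at 1679 plain CPM, *Bmpr1a* at 32.6 and *Id3* at 32.6. In Langerhans cell-like wells (38 wells) *Id2* stood at 1664 CPM. The cluster led by *Lipi* (39 wells) held *Sostdc1* at 584, *Id2* at 223, *Bmp7* at 97.1, *Id3* at 48.5, and *Bmpr1a*, *Tgfb2* and *Id1* at 38.8 CPM each. These values came from few wells, *Sostdc1* being found in 15.4% and *Bmp7* in 7.69% of them, at a median depth of 1697 transcripts. The cluster led by *Mir1950* (60 wells, 44 of them from Troy-EGFP plate 1) held *Sostdc1* at 432, *Id2* at 115, *Bmpr1a* at 88.1 and *Id1* at 61.7 CPM, with *Sostdc1* in 11.7% of wells and a median depth of 1360 transcripts. The study's methods took out wells with high *Mir1950* as necrotic and those with high *Lipi* as not epidermal. Outlying plates were looked for in 18 groups of 4 Troy-EGFP plates (each gene in follicle and in interfollicular wells) by Dixon's test, and 0 groups had any, where chance would give about 1 in 20.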

How the results depend on the processing

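Of 1116 values of the 9 genes under the alternatives, 1063 kept their side of the threshold, 15 lost the call, 37 gained one and 1 reversed. Of the 1063, 45 changed sign without being called in either fit. The reversed value was *Bmp4* in lower against upper HF-like wells, at a log2 fold of 5.63 (edgeR adjusted p = 0.0023) with classes by marker sums against -0.83; the cause was not tested. The number of the 9 genes called changed as follows. For Troy-EGFP+ against Troy-EGFP- cells it went from 2 to 0 with DESeq2, 4 with the replicate block and 0 to 4 with a library left out, and for ITGA6bright against viable cells from 0 to 1 without a filter and 0 to 1 with a library left out. For follicle against interfollicular wells it went in Troy-EGFP plates from 4 to 3 with marker sums, without the *Aspn*-led wells and in plates without mitochondrial rows, 5 with the block and with wells of at least 2000 transcripts (with DESeq2 it stayed at 4, with *Sostdc1* called and *Tgfb2* not), 6 in plates with mitochondrial rows and 2 to 5 with a plate left out, and in traced plates from 2 to 0 with marker sums, 4 with the block and 0 to 3 with a plate left out. In follicle wells of traced against Troy-EGFP plates it went from 0 to between 0 and 1 with a plate left out. For lower against upper HF-like wells it went from 3 to 5 with DESeq2, with marker sums and without a filter, 4 with the block, in plates with mitochondrial rows and without the *Aspn*-led wells, and 3 to 4 with a plate left out. For IFE II-like against IFE I-like wells it went from 0 to 2 with DESeq2, marker sums, the block and no filter, to 1 with sums of at least 5 wells, resolution 0.5, wells of at least 2000 transcripts and either set of plates with or without mitochondrial rows, and 0 to 2 with a plate left out.

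The number of all genes called changed by over 1.5 times under these settings. Troy-EGFP+ against Troy-EGFP- cells went from 328 to 137 (DESeq2) and 131 to 751 (a library left out), and ITGA6bright against viable cells from 8 to 4 (DESeq2) and 4 to 92 (a library left out). The Troy-EGFP follicle went from 436 to 206 (marker sums), 736 (plates with mitochondrial rows), 1022 (block) and 230 to 448 (a plate left out). The traced follicle went from 225 to 31 (marker sums), 370 (no filter), 939 (block) and 0 to 475 (a plate left out). The difference of the follicle effect went from 0 to 5 (no filter), 1 (plates without mitochondrial rows) and 20 (block). Traced against Troy-EGFP plates went from 88 to 465 (no filter), 359 (only the plates named TroyM) and 2 to 723 (a plate left out) in interfollicular wells, and from 62 to 160 (DESeq2), 95 (marker sums), 418 (no filter), 389 (TroyM) and 0 to 613 (a plate left out) in follicle wells. Lower against upper HF-like wells went from 544 to 848 (block) and 346 to 739 (a plate left out), and IFE II-like against IFE I-like wells from 441 to 681 (DESeq2), 728 (block) and 238 to 681 (a plate left out). The block is not estimable between traced and Troy-EGFP plates, which are different mice, and was not run there. Depth limits the rarer members: *Tgfb2*, *Bmp2* and the follicle levels of *Bmp4* rest on few transcripts per sum, and with 2 traced mice a call rests on a spread shared with the Troy-EGFP plates. The alternatives by mitochondrial rows and without the *Aspn*-led wells were chosen after the data were seen.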
